A study of Mus musculus with 2 samples.

Results

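Kinesins are motor proteins that use ATP to move along microtubules, and their genes divide the work of the cell by role. The 39 protein-coding genes of GENCODE M21 whose symbol starts with Kif and a digit were taken here, out of 21911 protein-coding genes in all. By their known roles they were placed in 5 groups: 12 mitotic genes, whose proteins build the spindle, move chromosomes or complete cytokinesis; 8 genes for cargo transport in most cell types; 7 genes known mainly for transport in neurons; 6 genes of the cilium and flagellum; and 6 others. Kif1bp fits the symbol pattern but encodes a protein that binds kinesins, not a motor.

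H3K36me3, the trimethylation of lysine 36 on histone H3, was measured in E14TG2a.4 cells, a male embryonic stem cell line of mouse strain 129/Ola whose labels give the embryonic stage and 3.5 days as age. The assay was ChIP-seq, which sequences the DNA that an antibody to the mark pulls down with chromatin. Both biological replicates came from that line, and they formed the only group, so no conditions were compared and no test over samples was possible. Embryonic stem cells divide rapidly, and neurons do not divide. H3K36me3 is placed by the methyltransferase SETD2, which travels with elongating RNA polymerase II, so the mark is known as a feature of the bodies of transcribed genes. It is usually low at the start of a gene and higher toward the end.

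The measure is the covered share, the percent of the bases of an annotated gene body that lie in the authors' peaks for a replicate. A gene is called marked here when at least 10% of its body was covered in each replicate. Paired values are given for replicate 1 and then replicate 2. The replicates had 107779 and 98185 peaks over 139 and 127 Mb. All 9 marker genes of embryonic stem cells were marked, with medians of 65.5% and 61.9%, and none of the 6 fibroblast markers, chosen for feeder cells, had a covered base. Of all coding genes 37.2% were marked and 50.1% had no covered base, so lack of coverage is common.

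The motor domain of a kinesin holds a loop that grips the phosphates of ATP. Its codons mark a fixed point in genes of very different length, and they are shown for members that the results turn on, with the build mm10 and the strand. The last 3 codons of the loop, for glycine, lysine and then serine or threonine, are in capitals. The first 3 lines are mitotic genes, and the others are the neuronal genes Kif5c and Kif1a and the transport genes Kif1c and Kif3b.
Kif11 (chr19:37384736-37384759, plus strand): ggtcagactggcactGGAAAAACT
Kif23 (chr9:61937178-61937201, minus strand): ggcgtgacgggaagtGGAAAAACC
Kif4 (chrX:100633865-100633888, plus strand): gggcagactggatctGGAAAAACG
Kif5c (chr2:49680203-49680226, plus strand): gggcagacttcatcaGGAAAAACT
Kif1c (chr11:70703804-70703827, plus strand): gggcagacgggggctGGGAAGTCC
Kif1a (chr1:93077739-93077762, minus strand): gggcagacgggggccGGCAAGTCC
Kif3b (chr2:153316566-153316589, plus strand): ggacaaacaggaactGGGAAAACC

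Between Kif1c and Kif1a 22 of the 24 bases are identical. The loop was wholly covered in both replicates in Kif11, Kif23, Kif4, Kif1c and Kif3b, and in Kif5c and Kif1a it lay outside the peaks of both replicates.

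The mitotic members were the most covered, and the neuronal, cilium and other members mostly had little, as did coding genes at large. Of the mitotic genes 11 of 12 were marked, of the transport genes 6 of 8, and of the neuronal genes 1 of 7. Among the cilium genes 2 of 6 were marked, and among the others 2 of 6. In all, 22 of the 39 members were marked (56.4%), against 8155 of 21911 protein-coding genes (37.2%). The marked share was 33.3% among the cilium genes and also among the others, near that of all coding genes. No covered base was found in 10 members, against 10978 of all coding genes (50.1%). The median covered share was 76.9% ± 3.39 for mitotic genes, 21.9% ± 0.0193 for transport genes and 3.14% ± 3.21 for neuronal genes (mean ± SD over 2 replicates). The transport median lies midway between Kif3b and Kif1b in replicate 1, and between Kif3b and Kif13a in replicate 2. The SDs of Kif3b, Kif1b and Kif13a were 1.69, 3.37 and 0.509 points, so the SD of that median understates the replicate spread. The median was 0 in both replicates for cilium genes, and 4.63% and 4.38% for the others. The median over all coding genes was 0 in both replicates, and over all marked coding genes it was 57.1% and 52.9%.

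Within each replicate the mitotic median exceeded the neuronal median by 73.9 and 73.6 percentage points, a mean of 73.8 ± 0.178 (SD, n = 2). It exceeded the transport median by 57.4 and 52.7 points, and the transport median exceeded the neuronal one by 16.5 and 20.97 points. These differences are larger than the spread of the medians between replicates, which can be smaller than that of single members. The groups overlapped at their edges: 9 of the 12 mitotic genes lay above every neuronal gene in both replicates, and Kif18a, Kif4 and Kif2b did not. The mark was called over separate peaks of each replicate, and the replicates kept the same 22 members past the threshold. Gene length moved with role: the median body was 38.2 kb for mitotic, 86.7 kb for transport and 51.5 kb for neuronal genes, against 17.4 kb for all coding genes. Its part in the differences was not tested. The median percent of sampled 32-base words that occur once in the genome was 93.3 for mitotic, 93.0 for transport and 94.6 for neuronal genes.

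**Figure D1:**
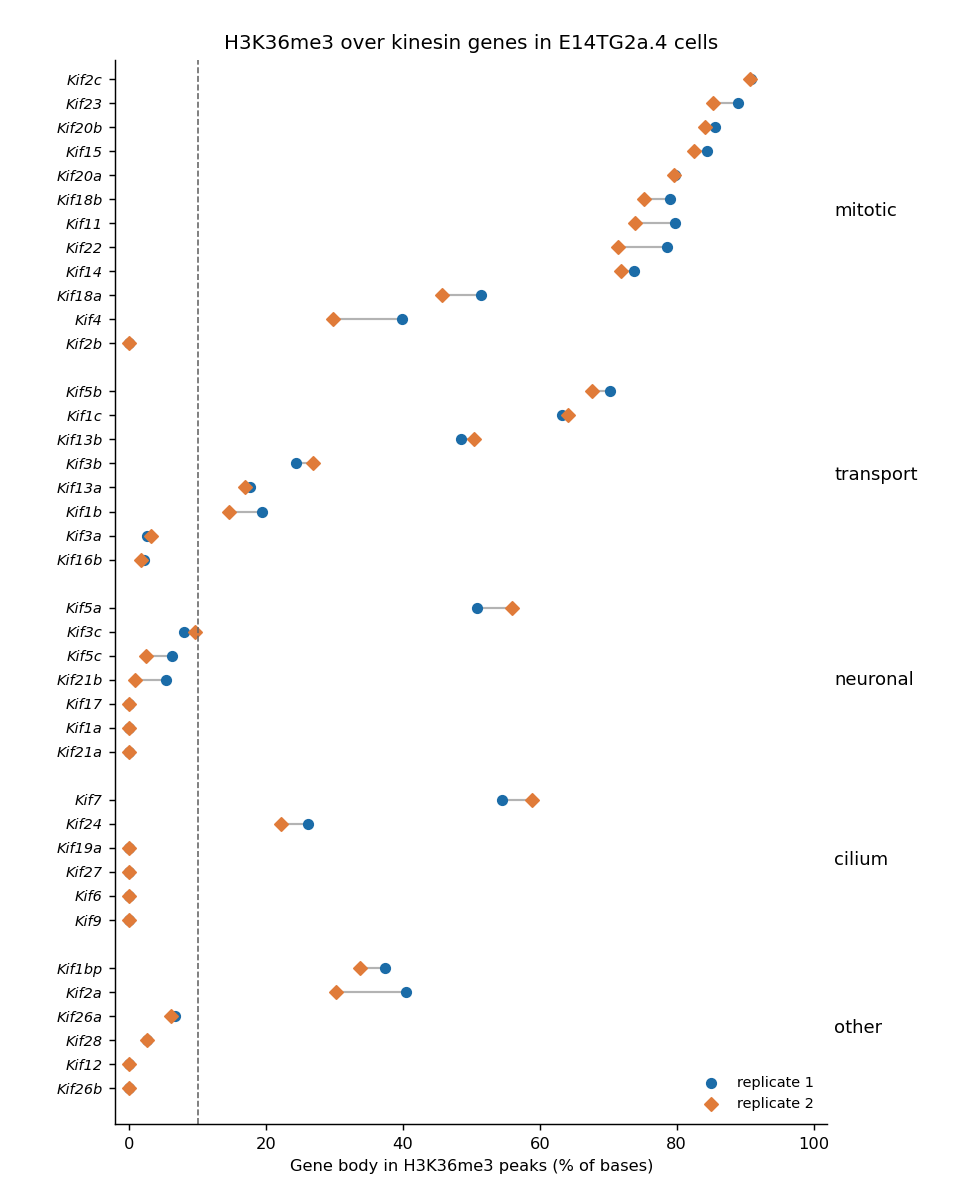
Percent of each gene body in H3K36me3 peaks (horizontal axis) for the 39 members, grouped by role, with circles for replicate 1, diamonds for replicate 2 and a dashed line at the 10% threshold. Of the mitotic genes 11 lie right of the line, while among neuronal genes Kif5a alone does, at 50.8% and 56.0%.

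Kif2c had the highest covered share of all members, with 90.9% and 90.8%. It lies at chr4:117159639-117182639 and encodes the depolymerase that corrects faulty attachments of microtubules to kinetochores. When the body was cut into 3 equal parts, the 5′ part nearest the start, the middle part and the 3′ part, the middle part of Kif2c was covered to 100% in both replicates. Averaged over the gene body, the authors' fold enrichment per peak was 11.2 and 16.7, the highest among the members in both replicates.

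The cytokinesis motors followed closely. Kif23 (chr9:61915905-61946774), the motor subunit of centralspindlin, had 88.9% and 85.3%. Kif20b (chr19:34922361-34975745), which acts late in cytokinesis, had 85.6% and 84.2%. Kif20a (chr18:34624613-34633277), which brings the chromosomal passenger complex to the central spindle, had 79.7% and 79.6%. All 3 belong to the kinesin-6 family, and it was the only family of more than 2 genes in which every member was marked. Kif20a shares 2.33 kb at its end with Cdc23 on the other strand, a subunit of the anaphase-promoting complex that had 86.5% and 86.9%. Outside that overlap Kif20a had 72.2% and 72.1%. Brd8 starts 0.011 kb before Kif20a on the other strand and had 89.7% and 90.9%.

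The motors that set up the spindle were covered to a like degree. Kif15 (chr9:122951046-123018733), which helps to keep the spindle bipolar, had 84.4% and 82.5%. Kif11 (chr19:37376403-37421859), which slides antiparallel microtubules and pushes the poles apart, had 79.7% and 73.9%. Kif18b (chr11:102905529-102925124), which acts on astral microtubules, had 79.0% and 75.2%. Kif11 and Kif18b overlapped in their replicates, and Kif15 lay above both.

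The remaining mitotic motors differed more from each other. Kif22 (chr7:127027729-127042471), which binds DNA and pushes chromosome arms outward, had 78.6% and 71.5%. Kif14 (chr1:136466343-136531511), which acts with citron kinase at the midbody, had 73.8% and 71.9%. Kif18a (chr2:109280738-109341747), which dampens chromosome movements at the metaphase plate, had 51.3% and 45.8%. Kif4 (chrX:100625737-100727214), the chromokinesin that partners Prc1 at the central spindle, had 39.9% and 29.8%. Kif18a and Kif4 lay below every other marked mitotic gene in both replicates. Kif4 is also the longest mitotic member, at 101.5 kb, and the only X-linked member of the family. Its start overlaps 0.832 kb of Pdzd11, which had 48.4% and 34.3%.

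Kif2b (chr11:91575315-91577558) was the only mitotic gene without a covered base. It encodes a depolymerase of the same family as Kif2c, and its 2.24 kb body is a single exon block. Its nearest coding neighbours lie 1520 kb before it and 887 kb after it.

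The 30 spindle and cytokinesis genes listed beside the kinesins were all marked, beside 37.2% of all coding genes. Their medians were 82.3% and 78.5%, close to the mitotic kinesins. This list was chosen with earlier results of these data known. Incenp, the scaffold of the chromosomal passenger complex, had 94.9% and 94.7%, and the separase gene Espl1 had 90.7% and 90.2%. Cenpf, a kinetochore protein, had 91.2% and 89.4%, and Plk1, a mitotic kinase, had 90.0% and 89.6%. The lowest were Nuf2, of the kinetochore, with 54.7% and 52.9%, and Numa1, of the spindle pole, with 50.1% and 42.6%.

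All 6 kinesin genes listed beside the members, whose symbols lack the digit, were marked, beside 37.2% of all coding genes. Cenpe, the kinetochore kinesin, had 85.8% and 86.7%. The spindle motor Kifc1 had 81.1% and 85.2%, and its near copy Kifc5b had 80.3% and 81.9%. Reads from near-identical copies can be shared, so the values of that pair are uncertain. Kifc2, known from neurons, had 16.5% and 20.8%, Stard9 had 18.7% and 18.1%, and Kifc3 had 14.4% and 16.0%.

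Among the transport genes, Kif5b (chr18:6201002-6242174), the widely expressed heavy chain of conventional kinesin, had 70.2% and 67.6%. Kif1c (chr11:70700548-70731964), a vesicle motor, had 63.2% and 64.1%. Kif13b (chr14:64647265-64809617), which carries membrane cargo toward microtubule plus ends, had 48.4% and 50.4%. These 3 genes lay above the other transport members in both replicates.

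The remaining transport members were covered less. Kif3b (chr2:153291413-153333390), a subunit of the kinesin-2 motor that builds cilia, had 24.4% and 26.8%. Kif13a (chr13:46749087-46929867), a motor of recycling endosomes, had 17.6% and 16.9%. Kif1b (chr4:149176319-149307693), a motor for mitochondria and synaptic vesicle precursors, had 19.3% and 14.6%. Kif3a (chr11:53567379-53601967) had 2.58% and 3.14%, and Kif16b (chr2:142617474-142901531), an early endosome motor and the longest of the group at 284 kb, had 2.22% and 1.71%. Kif1b and Kif13a were the marked members nearest the threshold. At a threshold of 25% neither they nor Kif3b would be marked, which leaves 3 transport genes, and at 50% 2.

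Kif3a and Kif3b encode the 2 motor subunits of the same heterodimer, which the adaptor Kifap3 completes. Kif3b was above Kif3a by more than 20 points in each replicate, and Kifap3 was as low as Kif3a, with 3.29% and 3.65%. Of the 22 intraflagellar transport genes, which encode the cargo train that this motor pulls, 10 were marked and 3 had no covered base. Of all coding genes 37.2% were marked, so the marked count is near the background. Ift20 was the highest, with 59.1% and 62.6%, and Ift52, Ift46 and Ift172 followed.

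Among 15 light chain and adaptor genes 10 were marked, beside 37.2% of all coding genes. Mapk8ip3, which links kinesin-1 to vesicles, had 78.0% and 76.8%, and Ktn1, a membrane anchor for kinesin, had 67.3% and 67.7%. The light chain gene Klc1 had 67.1% and 60.4%, and Klc2 had 33.3% and 44.8%. The lowest were Jakmip1, with 1.13% and 0.214%, and Fez1, with no covered base.

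Of the neuronal genes, Kif5a (chr10:127225696-127263348), a heavy chain that carries neurofilaments along axons, was the exception. It had 50.8% and 56.0%, within the range of the transport genes and above Kif18a in replicate 2. Its coding neighbours on both sides were marked. Dctn2, a dynactin subunit that starts 3.02 kb away on the other strand, had 79.6% and 84.9%. Pip4k2c, 14.1 kb beyond its end, had 85.7% and 89.9%. The end window of Kif5a, 500 bases to each side of its end, and the 5 kb after it lay outside all peaks, and the 5 kb before its start, toward Dctn2, was covered to 17.9% and 18.8%. The part of the neighbours in the value of Kif5a was not tested.

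The other neuronal genes lay below the threshold. Kif3c (chr12:3365132-3406494), a neuronal kinesin-2 subunit, had 7.96% and 9.55%, the unmarked member nearest the threshold. Kif5c (chr2:49619298-49774778), a heavy chain enriched in neurons, had 6.21% and 2.49%, and Kif21b (chr1:136131389-136177998), found in dendrites, had 5.42% and 0.873%. For both, replicate 2 was the lower. Kif17 (chr4:138250435-138301967), a dendritic motor for glutamate receptors, had no base in peaks. The same held for Kif1a (chr1:93015464-93101951), the main motor for synaptic vesicle precursors, and for Kif21a (chr15:90933276-91049948), which acts in axon growth.

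In Kif3c the coverage sat at the end of the gene. The 3′ part had 21.9% and 20.3%, the middle part 2.02% and 1.65%, and the 5′ part 0 and 6.75%. The window around its end was covered to 100% and 82.3%, and the next 5 kb to 98.9% and 97.4%. Kif3c overlaps 1110002L01Rik, Gm48511 and Gm48512, which are not annotated as protein-coding, and reads from shared bases cannot be told apart. Where in the span of Kif3c these genes lie was not examined, and their part in its coverage was not tested. Kif17 had no covered base between marked genes on both sides: Hp1bp3, 5.75 kb before it, had 82.8% and 68.9%, and Ddost, 2.76 kb after it, had 76.8% and 76.4%. Sh2d5, which shares 10.9 kb with the start of Kif17, had none.

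A wider list of 22 neuronal genes had 5 marked and 12 with no covered base, beside 37.2% and 50.1% of all coding genes, so the count without coverage is near the background. Vamp2, a synaptic vesicle protein that other cells also express, had 74.8% and 74.0%. Stmn2 had 63.0% and 50.4%, the receptor subunit Grin1 43.3% and 40.0%, and the neurofilament gene Nefl 31.5% and 35.9%. Apba1 and Dcx were among those with none. The count of marked neuronal kinesins depended on the peak set: it was 1 with the replicates' own peaks, 2 with the peaks of both pooled and 3 with the set that the other run found in both replicates. The pooled set added Kif3c, and the other run's set added Kif21b and Kif5c.

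**Figure D2:**
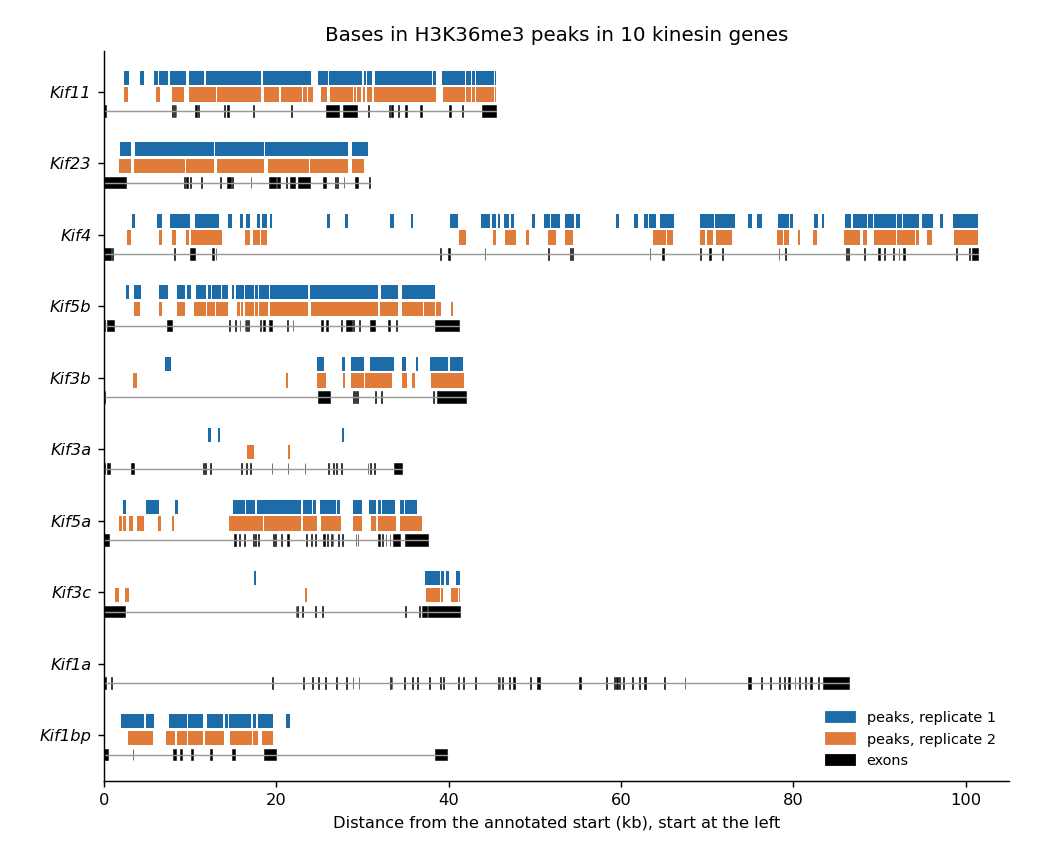
Bases in peaks along 10 members, from the annotated start at the left, by distance in kb; the upper bars are replicate 1, the middle bars replicate 2 and the lower boxes exons. After an uncovered start, Kif23 is filled almost throughout and Kif11 over most of its length, Kif3a and Kif3c hold short stretches, Kif1a has none, and the coverage of Kif1bp ends before its last annotated exon.

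Within a family defined by the motor domain, members could differ in coverage. In the kinesin-1 family, Kif5b had 70.2% and 67.6%, Kif5a had 50.8% and 56.0%, and Kif5c had 6.21% and 2.49%. Those 3 values do not overlap between genes in either replicate. In the kinesin-3 family 5 of 8 genes were marked: the mitotic Kif14 was the highest, the transport genes Kif1c, Kif13b, Kif13a and Kif1b followed, and the neuronal Kif1a had no covered base. In the kinesin-4 family the mitotic Kif4 and the cilium gene Kif7 were marked, and Kif21a, Kif21b and Kif27 were not. In the kinesin-13 family, the depolymerases, Kif2c, Kif2a and Kif24 were marked and Kif2b was not. The kinesin-9 genes Kif6 and Kif9, of motile cilia and sperm tails, had no covered base.

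Of the cilium genes, Kif7 (chr7:79698098-79715720), a regulator of Hedgehog signalling at the ciliary tip, had 54.4% and 58.8%. Kif24 (chr4:41390745-41464887), which restrains the growth of cilia at centrioles, had 26.1% and 22.2%. Kif19a, which limits cilium length, and Kif27, the closest relative of Kif7, had no covered base, like Kif6 and Kif9. Both marked genes meet a marked neighbour tail to tail. The end of Kif7 overlaps that of Ticrr by 0.051 kb, and Ticrr had 92.6% and 91.9%. The 5 kb after Kif7 was covered to 100% and 98.3%. Ubap1 ends 0.219 kb from the end of Kif24 and had 50.5% and 46.9%. The 3′ part of Kif24 was covered to 40.1% and 41.2%, the middle part to 4.08% and 1.48%, and the 5′ part to 34.0% and 23.8%. The part of these neighbours was not tested.

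Among the other members, Kif2a (chr13:106958996-107022126), a depolymerase of spindle poles and of growing axons, had 40.4% and 30.2%. That gap of 10.2 points was the largest between replicates for any marked member, against a median of 3.62 points. Its end overlaps 1.23 kb of Dimt1, which had 75.8% and 77.5%. Kif1bp (chr10:62538626-62578457) had 37.3% and 33.7% of its annotated span. A long last intron sets its final exon apart, and on the 20.0 kb span of the transcript with the longest coding sequence it had 72.0% and 67.2%. Kif26a, a member of the motor-dead kinesin-11 family, had 6.63% and 6.16%, and its relative Kif26b had none. Kif28 had 2.63% and 2.61%, all of it in the 5′ part, where 0.378 kb overlaps the end of the marked gene Ahctf1. Kif12 had no covered base.

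Position along the gene was measured in the 22 marked members, all longer than 3 kb. The 3′ part was covered more than the 5′ part in both replicates in 18 of the 22, against 6618 of 7789 marked coding genes of that length (85.0%). The share of members is near that background. The 3′ part averaged 68.2% and 68.3%, and the 5′ part 43.7% and 39.6%, a mean gain of 26.6 ± 2.95 points (SD, n = 2). All marked coding genes had a gain of 36.1 ± 1.18 points. The gain was 24.95 ± 1.70 points in the 11 mitotic genes and 32.3 ± 4.39 points in the 6 transport genes. In the mitotic genes the middle part was already at 82.9% and 78.1%, beside 83.8% and 81.8% in the 3′ part. In the transport genes the middle part was at 41.8% and 40.3%, beside 54.5% and 57.6% in the 3′ part.

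With the body cut into 10 equal parts, the mitotic genes had 26.03% and 23.1% in part 1 and 73.5% and 67.4% in part 2. The transport genes had 30.05% and 23.2% in part 2 and their highest values in part 8, with 63.5% and 70.7%. All marked coding genes had 35.9% and 31.8% in part 2 and their highest values in part 9, with 71.5% and 70.1%. The step between parts 1 and 2 of the mitotic genes is larger than the spread between replicates.

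**Figure D3:**
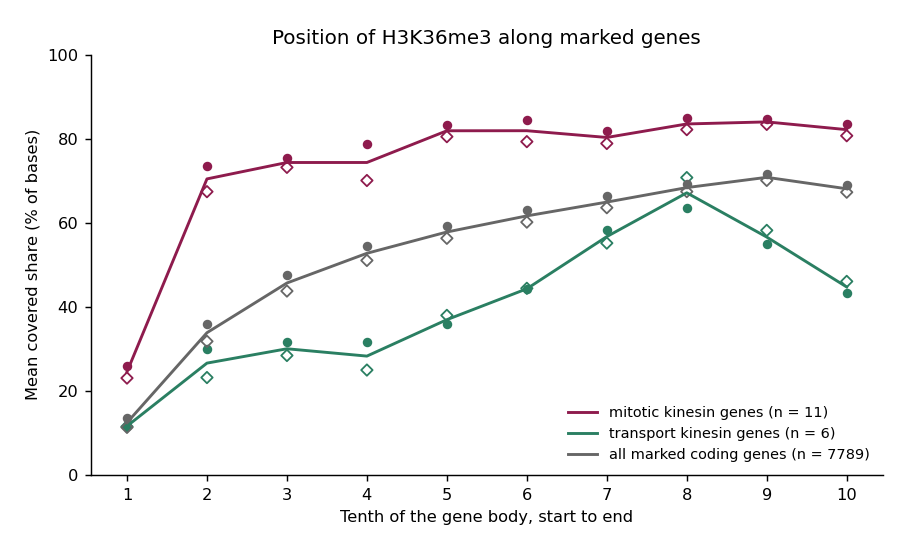
Mean covered share in 10 equal parts of the gene body, start to end, for marked mitotic genes, marked transport genes and all marked coding genes of at least 3 kb; filled circles are replicate 1, open diamonds replicate 2 and lines their mean. The mitotic genes reach 73.5% and 67.4% by part 2, where all marked coding genes have 35.9% and 31.8%. The parts scale with gene length, which differs between the groups.

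The window of 500 bases to each side of the annotated start was covered to 0 in both replicates on average over the marked members. Over all marked coding genes of at least 3 kb it averaged 1.83% and 1.74%, so little coverage there is common. The share of those genes with no covered base in the window was not counted. In Kif11 the first covered base came 2.38 and 2.29 kb after the start, in Kif23 after 1.80 and 1.72 kb, and in Kif5a after 2.15 and 1.68 kb. Kif1b began later, at 16.2 and 18.1 kb. Around the annotated end the window was covered to 61.0% and 64.5% in mitotic genes and 14.3% and 13.6% in transport genes, beside 58.6% and 56.1% in all marked coding genes.

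In the other 4 marked members the 5′ part was covered more. Kif1bp had none in the 3′ part and 66.5% and 63.9% in the 5′ part. Its last covered base lay 21.6 and 19.6 kb after the start, in a span of 39.8 kb. The transcript with the longest coding sequence ends 20.0 kb after that start. The gain of Kif1bp on its annotated span, -66.5 and -63.9 points, is part of the mean gain of the members. Kif18a had 28.4% and 27.5% in the 3′ part, against 53.7% and 44.1% in the 5′ part. Kif1c had 52.2% and 55.5% in the 3′ part, against 77.5% and 77.5% in the 5′ part. Kif14 was nearly even, with 73.8% and 71.7% in the 3′ part and 77.1% and 77.3% in the 5′ part. The steepest gain was in Kif13b, with 78.3% and 80.7% in the 3′ part and 12.2% and 9.88% in the 5′ part.

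Exon bases were covered more often than intron bases. Pooled over the marked members, 70.2% and 71.3% of exon bases lay in peaks, beside 44.3% and 41.1% of intron bases, a ratio of 1.66 ± 0.107 (SD, n = 2). All marked coding genes with introns had 1.55 ± 0.0872. Exons exceeded introns in both replicates in 19 of the 22 members, against 5383 of 8010 marked coding genes (67.2%). Within the 3′ part alone the ratio was 1.28 in the members and 1.29 in all marked coding genes. Over the whole gene the mitotic ratio was 1.31 ± 0.0662, and the transport ratio was 1.91 ± 0.152. That order was not kept in the 3′ part, where the mitotic ratio was 1.25 ± 0.0494 and the transport ratio 1.16 ± 0.108.

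Kif3b showed the widest contrast, with 74.6% and 82.7% of exon bases and 16.6% and 18.1% of intron bases. Kif13a had 52.7% and 60.2% of exon bases, beside 16.0% and 14.9% of intron bases. The reverse was found in Kif23, Kif1c and Kif5b. Kif5b had 45.5% and 52.4% of exon bases and 76.1% and 71.3% of intron bases, and Kif1c had 47.7% and 54.0% beside 67.9% and 67.1%. Kif23 had 75.4% and 75.7% beside 93.5% and 88.6%. In Kif23 the first annotated exon block is long and lies in the uncovered start, as the gene map shows.

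**Figure D4:**
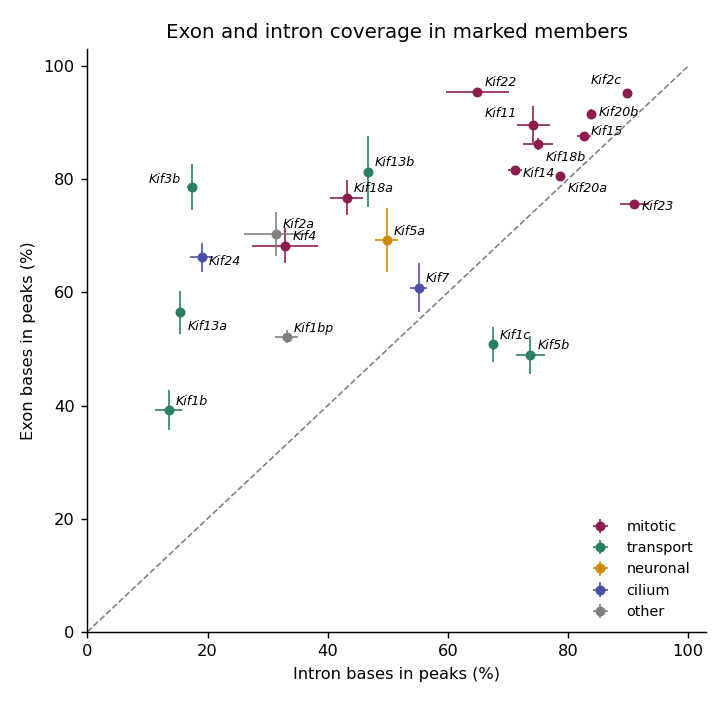
Percent of exon bases in peaks (vertical axis) against percent of intron bases (horizontal axis) in the 22 marked members, coloured by role; points are means of both replicates, bars reach to the value of each replicate, and the dashed line marks equal coverage. Of these genes 19 lie above the line, and Kif23, Kif1c and Kif5b lie below it.

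The ATP-binding loop was found in the coding sequence of 38 of the 39 members; Kif1bp has none. In 31 of them it had the usual kinesin form, and in the other 7 a looser form that fixes only the glycines, the lysine and the last residue. Kif26a and Kif26b, and Kif5c among the genes shown, have the looser form. It lay wholly in peaks in both replicates in all 11 marked mitotic genes and in 4 of the 6 marked transport genes. In Kif5b it had no covered base, in a gene covered to 70.2% and 67.6%. In Kif13a an intron splits the loop, and 58.3% of it was covered in both. In Kif7 and Kif24 it had no covered base, and no unmarked member had a covered base in it. The loop lies at a median of 22.02% of the gene length in marked mitotic genes and at 38.7% in marked transport genes.

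Promoters were taken from RefSeq on GRCm38.p6, from 250 bases before the start to 50 bases after it, and 32 of the 39 members have an entry. They were searched on both strands for TTTGAA, the cell cycle homology region (CHR) through which the DREAM and MuvB complexes time genes of mitosis, and for CCAAT, the box bound by NF-Y. The motifs can overlap by at most 1 base. The CHR letters were present in 9 of 11 mitotic promoters (81.8%), in 0 of 6 transport promoters and in 0 of 5 neuronal promoters, against 18.1% of 27025 promoters. Kif18a and Kif2b were the mitotic genes without them. They were also present in Kif27 and Kif26b, which had no covered base. Of the promoters counted, those of the mitotic genes Kif2c and Kif14 have RefSeq starts 3867 and 1505 bases inside the GENCODE span. The same holds for Kif27, by 4175 bases, and for the neuronal gene Kif17, by 11816 bases. CCAAT was present in 7 of 11 mitotic, 3 of 6 transport and 0 of 5 neuronal promoters, against 37.9% of all. A match is a description of letters and not a bound site.

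Promoters of 3 well covered mitotic genes and of the uncovered neuronal gene Kif1a are shown, with CHR and CCAAT letters of either strand in capitals.
Kif11 (chr19:37376132-37376431, plus strand): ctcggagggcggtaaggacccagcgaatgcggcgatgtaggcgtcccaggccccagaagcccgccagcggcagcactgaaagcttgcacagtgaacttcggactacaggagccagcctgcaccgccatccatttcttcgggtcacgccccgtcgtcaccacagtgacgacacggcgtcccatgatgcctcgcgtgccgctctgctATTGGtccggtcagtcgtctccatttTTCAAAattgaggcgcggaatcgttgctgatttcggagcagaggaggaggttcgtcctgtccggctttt
Kif23 (chr9:61946750-61947049, minus strand): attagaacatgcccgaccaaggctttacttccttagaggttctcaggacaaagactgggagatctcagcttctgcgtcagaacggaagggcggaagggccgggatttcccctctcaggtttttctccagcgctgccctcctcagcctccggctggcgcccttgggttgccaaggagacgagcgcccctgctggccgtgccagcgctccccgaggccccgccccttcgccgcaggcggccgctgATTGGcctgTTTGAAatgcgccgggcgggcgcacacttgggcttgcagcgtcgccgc
Kif20b (chr19:34922108-34922407, plus strand): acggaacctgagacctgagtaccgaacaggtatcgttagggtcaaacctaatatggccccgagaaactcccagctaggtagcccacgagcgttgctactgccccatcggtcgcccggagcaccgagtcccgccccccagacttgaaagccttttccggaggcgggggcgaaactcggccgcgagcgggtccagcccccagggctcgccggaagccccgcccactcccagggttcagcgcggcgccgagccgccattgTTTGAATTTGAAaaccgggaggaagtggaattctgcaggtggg
Kif1a (chr1:93101825-93102124, minus strand): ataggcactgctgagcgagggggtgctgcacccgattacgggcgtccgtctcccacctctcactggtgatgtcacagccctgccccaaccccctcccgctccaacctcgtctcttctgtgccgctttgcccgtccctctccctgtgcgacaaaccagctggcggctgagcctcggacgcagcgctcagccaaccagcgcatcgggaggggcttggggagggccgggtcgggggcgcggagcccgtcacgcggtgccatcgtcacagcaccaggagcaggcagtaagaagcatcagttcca

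In Kif11 the CHR letters begin 19 bases before the RefSeq start, on the opposite strand, with the box at 45 bases before it. In Kif23 they begin 2 bases after the start, and in Kif20b 7 and 13 bases after it, in a direct repeat. None of the 4 promoters had a covered base. A promoter window touched by peaks in both replicates was found for Kif2c and Kif14 alone of the 32, and for 1.64% of all promoters. Their RefSeq starts lie 3867 and 1505 bases inside the GENCODE spans, so those windows fall within the annotated gene body.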

How the data were processed

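The authors deposited narrow peak sets on mm10 for H3K36me3 in 2 biological replicates: peaks supported by pseudoreplicates per replicate and pooled, unthresholded sets, and sets of peaks found in both replicates from 2 processing runs. Each deposited peak has a fold enrichment, a ratio over background, and p-values and q-values as −log10. For the aligner, the peak caller and the depth nothing is given in the sources used here, so differences in coverage between replicates can come from depth. The archived mm9 set was not used here. Cells of strain 129/Ola were mapped to a C57BL/6J reference.

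Gene models were GENCODE M21 on 21 chromosomes, 1 record per symbol, with whole annotated spans and merged exons. Pooled exon and intron bases came from marked genes. The uniqueness of a body used 32-base words every 20 bases. The scripts used Python 3.11.15, NumPy 2.4.6 and numba 0.67.0, and coverage was checked on simulated peaks. Members and gene lists were chosen with earlier results of these data known. Every member was named; of the other lists, up to 4 with the highest and 2 with the lowest covered share were to be named. With 1 group of 2 replicates no p-value could be computed. Alternatives were other peak sets, thresholds, spans, role assignments and 1 replicate left out.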

Additional observations from a re-analysis of the deposited data

How the results depend on the processing

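No paired analysis was possible because the replicates form a single group. With each replicate left out, the mitotic median ran from 74.5 to 79.3%, the neuronal from 0.873 to 5.42% and the transport from 21.8 to 21.9%; the mitotic minus neuronal difference ran from 73.6 to 73.9 points, the 3' gain from 24.5 to 28.7 points and the exon to intron ratio from 1.58 to 1.74, and no count of marked members moved. No result reversed. In each list below the settings are the sets without a threshold, a minimum −log10 q of 5, the pooled set, and the sets of peaks found in both replicates of the main and the other run, where they moved the value by more than the replicate SD; the cause was not tested. The difference was 71.3, 75.4, 75.5, 73.2 and 74.8 points. The transport median was 29.6, 18.5, 31.5, 30.2 and 34.1%. The neuronal median was 7.21% unthresholded, 8.47% pooled, and 8.28 and 9.05% in the sets found in both replicates. At a minimum −log10 q of 5 the neuronal median was 0, a move within the replicate SD. The mitotic median was 84.0% pooled, and 81.5 and 83.9% in the sets found in both replicates. The ratio was 1.53 unthresholded, 1.498 pooled, 1.495 and 1.52, and 1.28 in the 3′ part alone. The gain was 22.4 points pooled, 23.3 in the other run's set, 23.1 in genes overlapping no other coding gene and 19.4 in genes of at least 30 kb. The difference was 74.7 points without Kif21a, Kif3c and Kif21b and 79.2 over merged exons.

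The neuronal count was 2 pooled, 3 in the other run's set and 2 at a threshold of 5%. The transport count was 3 at 25% and 2 at 50%. The cilium count was 1 at 25%, at 50% and without overlapping genes. The count of other members was 0 at 50%, 1 without overlapping genes and 1 with Kif2a counted as mitotic. The mitotic count was 9 at 50%, 8 without overlapping genes, 12 with Kif2a added and Kif2b left out, and 11 in every other alternative run. The count of other members was 3 in the sets without a threshold, pooled, in the other run's set and at 5%. Of all comparisons run, 87 of group values and 180 of single genes moved by less than the replicate SD or, as counts, stayed within 1.5 times. They include every covered share, difference, gain and ratio with 1 replicate left out. With 2 replicates such a value cannot move by more than the SD, so those comparisons say nothing about stability. Of the single genes, 132 comparisons moved by more. A span limited to the transcript with the longest coding sequence was added after seeing the data. With 2 replicates and unknown depth, a covered share of 0 means no called peak and not absence of the mark.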
